A study of Homo sapiens with 32 samples.

Results

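Accessible chromatin at the start sites of 36 aminoacyl-tRNA synthetase genes was examined in cells given dTAGV-1, a degrader directed at the tagged transcription factor ZNF143. The 36 genes comprised 20 that were treated as cytosolic and 16 mitochondrial genes, the latter being those whose symbols end in ARS2. A count window belonged to a gene if its centre lay within 500 bp of a GENCODE transcript start of that gene. This gave 72 windows of 401 bp out of 212358 in the table, and 67 of them passed the filter on low counts, out of 185040 tested. Of the 67, 35 belonged to cytosolic genes, 31 to mitochondrial genes and 1 to HARS1 and HARS2 together. A tested window was found for 34 genes, 19 of them cytosolic and 15 mitochondrial, and VARS1 and VARS2 had none.

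ATAC-seq uses the Tn5 transposase to cut and tag open DNA, so reads per window measure how accessible that DNA is. HEK293T is a human embryonic kidney cell line. All libraries came from the clone HEK_CloneZD29, in which ZNF143 carries a degron tag, a peptide that lets a small molecule send the protein for degradation, so the controls carried the tag too and the data describe 1 clone. The compared groups were control cells (0 nM, 0 min), called DMSO in their labels, and cells given 50 nM dTAGV-1, the degrader, for 30 min. Each had 8 libraries, replicates 9 to 16, and replicates 1 to 8 of both groups were not analysed here. The labels do not say that the numbered libraries are separate cultures, so the p-values measure only the spread between these libraries. ZNF143 protein was not measured here, and no untagged cells given dTAGV-1 were analysed.

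Aminoacyl-tRNA synthetases join each amino acid to its tRNA and so supply the ribosome with charged tRNA. Cytosolic and mitochondrial translation mostly use separate enzymes, all encoded in the nucleus, although GARS1 and KARS1 each give both forms, and several cytosolic enzymes sit together in a multi-synthetase complex. ZNF143 is a zinc finger activator that binds promoters through a long site, which includes a core and, at many promoters, an upstream element with the letters ACTACAA.

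Promoter sequences are shown for the gene with the clearest change, MARS1, for its mitochondrial counterpart MARS2, for CARS1, the other gene with a ZNF143 core, and for the start region that HARS1 and HARS2 share. They come from the RefSeq table for GRCh38.p14, which had entries for 30 of the 36 genes; LARS1, YARS1, TARS3, VARS1, VARS2 and AARS2 are the others. Each of the first 3 holds the 250 bases before the gene's start, 5′ to 3′ on the gene's strand. They lie at chr12:57487818-57488067 on the plus strand for MARS1, chr11:3057424-3057673 on the minus strand for CARS1 and chr2:197705119-197705368 on the plus strand for MARS2. The last holds the 84 bases between the oppositely directed HARS1 and HARS2 starts, chr5:140691371-140691454 on the plus strand. Capitals mark the ZNF143 core in MARS1 and CARS1, matches to an ETS motif and an NRF1 motif in MARS2, and 2 ETS matches between HARS1 and HARS2.
MARS1: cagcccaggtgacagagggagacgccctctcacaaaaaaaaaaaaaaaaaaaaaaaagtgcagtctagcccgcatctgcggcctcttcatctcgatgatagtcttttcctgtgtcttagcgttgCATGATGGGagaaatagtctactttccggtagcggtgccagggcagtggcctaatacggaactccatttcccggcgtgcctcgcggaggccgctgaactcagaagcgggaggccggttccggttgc
CARS1: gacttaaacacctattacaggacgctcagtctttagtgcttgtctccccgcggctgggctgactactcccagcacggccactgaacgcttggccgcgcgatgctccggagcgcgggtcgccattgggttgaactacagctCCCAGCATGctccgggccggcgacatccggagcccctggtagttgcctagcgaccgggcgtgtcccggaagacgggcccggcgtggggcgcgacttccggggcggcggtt
MARS2: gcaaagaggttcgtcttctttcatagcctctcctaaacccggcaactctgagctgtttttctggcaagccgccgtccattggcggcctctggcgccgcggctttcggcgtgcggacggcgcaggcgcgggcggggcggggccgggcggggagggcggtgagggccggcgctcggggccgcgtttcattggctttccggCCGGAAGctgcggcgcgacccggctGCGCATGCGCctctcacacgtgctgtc
HARS1 to HARS2: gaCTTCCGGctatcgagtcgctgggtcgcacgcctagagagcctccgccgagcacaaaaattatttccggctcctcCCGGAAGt

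MARS1, which charges the tRNA of methionine, was the 1 gene of the set whose start window passed the test. Its window, chr12:57487745-57488145, lies in an untranslated region at its centre, 123 bp upstream of the annotated main (canonical) start. Levels are given as log2 CPM, the log2 of counts scaled to library size (TMM normalization, prior count 2). The lowest, median and highest control libraries were at 5.05, 5.32 and 5.6, and those with dTAGV-1 at 4.42, 4.74 and 4.88. Every library with dTAGV-1 was below every control library, and the groups did not overlap. The group means were 5.36 ± 0.19 (SD, n = 8) and 4.71 ± 0.15 (SD, n = 8). The log2 fold change was -0.66 (SE 0.14, 95% interval -0.93 to -0.38), with 63.4% of the control level left and an adjusted p of 0.00802 in the quasi-likelihood test of edgeR, adjusted by Benjamini-Hochberg over all tested windows. Leaving out each library in turn gave adjusted p-values from 1.9e-05 (without control replicate 12) to 0.0486, also by edgeR, so the call held each time. The second MARS1 window, 16054 bp downstream in a noncoding exon, had few reads (184 in the 16 libraries together) and a log2 fold change of -0.35 (95% interval -1.01 to 0.32).

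The MARS1 window holds the ZNF143 core shown above in capitals, 1 bp from the window's centre and 122 bp upstream of the start, on the strand opposite to the gene. The authors' summit there, with a score of 914.9 in their deposited list, lay 13 bp from it and ranked at the 99.2 percentile of summits. The core was searched within 100 bp of window centres as CCCANAATG or CCCANCATG on both strands, where N is any base. It was present in 509 of 31702 tested windows near protein-coding starts (1.61%), and 30 of these 509 (5.89%) were called lower, against 0.628% of all 31702. A match describes the letters only and is not evidence of binding.

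LARS1, which charges the tRNA of leucine, gave the next smallest p and was not called, although it was under some other settings. The window, chr5:146182533-146182933, lies between genes with its centre 83 bp upstream of the canonical start. The lowest, median and highest control libraries were at 5.02, 6.43 and 6.49, and those with dTAGV-1 at 5.13, 5.77 and 5.97. In total, 7 of the 8 control libraries, at 6.18 or more, lay above every library with dTAGV-1, while control replicate 12, at 5.02, lay below all of them. The means were 6.23 ± 0.5 (SD, n = 8) and 5.66 ± 0.27 (SD, n = 8). The log2 fold change was -0.62 (SE 0.16, 95% interval -0.95 to -0.29), with an unadjusted p of 0.000441 and an adjusted p of 0.165 by edgeR, and 65.1% of the control level left. Without control replicate 12 it was -0.73 with an adjusted p of 1.13e-05 by edgeR, and leaving out any other library gave adjusted p-values from 0.174 to 0.527. With all 16 libraries and cyclic loess offsets in place of TMM it was -0.6 with an adjusted p of 1.17e-08 by edgeR. Of the neighbouring windows, the one 367 bp further upstream had a log2 fold change of -0.3 (95% interval -0.6 to 0.01) and the one 565 bp downstream, whose centre also occurs on an alternate contig of hg38, had 0.06 (95% interval -0.26 to 0.37).

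The LARS1 window carries the upstream element ACTACAA 3 times, at 39, 86 and 177 bp upstream of the canonical start. The first copy is on the gene's strand and the other two are on the opposite strand. Searched the same way, at least 1 copy was present in 607 (1.91%) of the 31702 windows near protein-coding starts, at least 2 copies in 42 and at least 3 copies in 3 (0.00946%). Of these, 74, 13 and 1 were called lower. The LARS1 window is 1 of the 3 with 3 copies, and the called window among them is a different one. The LARS1 window also holds the cAMP response element TGACGTCA 158 bp upstream of the start. That element was in 433 (1.37%) of the 31702 windows, and 0 of the 433 were called lower. The authors' summit in the LARS1 window had a score of 1882 in their deposited list. It lay 23 bp from the nearest copy of ACTACAA and ranked at the 99.9 percentile.

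**Figure D1:**
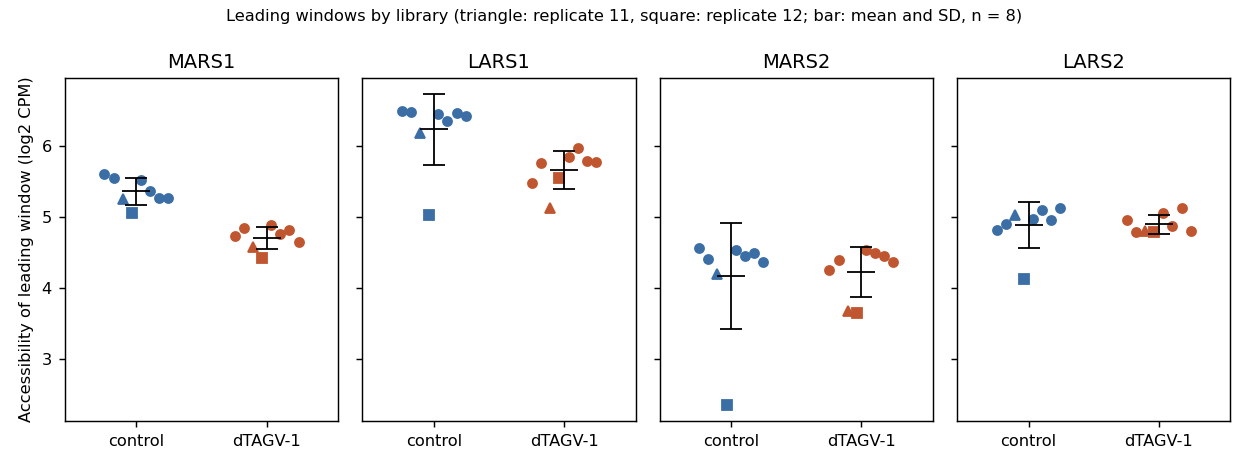
Accessibility in log2 CPM (vertical axis) of the leading windows of MARS1, LARS1, MARS2 and LARS2 in each library, with the mean and SD of 8 libraries; triangles are replicate 11 and squares are replicate 12. The MARS1 groups do not overlap, in LARS1 only control replicate 12 (5.02) falls among or below the libraries with dTAGV-1, and MARS2 and LARS2 overlap throughout.

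The mitochondrial enzymes for the same amino acids showed no such difference. The MARS2 window, 2 bp upstream of its start, had control libraries from 2.35 to 4.56 and libraries with dTAGV-1 from 3.65 to 4.53. Its log2 fold change was -0.045 (95% interval -0.38 to 0.29). The LARS2 window ranged from 4.12 to 5.13 in controls and from 4.78 to 5.13 with dTAGV-1, with a log2 fold change of -0.014 (95% interval -0.29 to 0.27). In both genes the lowest control value was that of replicate 12, and the groups overlapped. The MARS1 level exceeded that of MARS2 by 1.19 ± 0.62 log2 CPM (SD, n = 8) in controls and by 0.48 ± 0.23 (SD, n = 8) with dTAGV-1. Without control replicate 12 the control difference was 0.97 ± 0.12 (SD, n = 7). LARS1 exceeded LARS2 by 1.35 ± 0.26 (SD, n = 8) in controls, 1.41 ± 0.19 (SD, n = 7) without control replicate 12, and by 0.76 ± 0.26 (SD, n = 8) with dTAGV-1. Whether the response differed between the paired genes was not tested.

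Across the 67 tested windows, 1 was called lower and 0 were called higher by edgeR. Over all 185040 windows 395 (0.213%) were called lower and 2 (0.00108%) higher, and all dTAGV-1 libraries were below all control libraries in 132 (0.0713%). Of the 31702 windows near protein-coding starts, 199 (0.628%) were called lower and 2 higher. At an unadjusted p under 0.05 by edgeR, 2 of the 67 were lower and 2 were higher. Among all 185040 windows 2876 were lower and 2405 higher, and among the 31702 near protein-coding starts 711 and 266. The 2 higher member windows lie far from the canonical starts. One is in an intron of TARS3, 59969 bp downstream, with a log2 fold change of 0.36 (SE 0.17), and the other in a coding exon of AARS1, 21780 bp downstream, with 0.39 (SE 0.2); both had an adjusted p of 1 by edgeR. The TARS3 window ranged from 1.53 to 2.55 in controls and from 1.81 to 2.94 with dTAGV-1, and the AARS1 window from 0.9 to 2.07 and from 1.46 to 2.24, so both groups overlapped.

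The median change was close to 0 in both classes. The median log2 fold change was 0.002 over the 35 cytosolic windows and -0.032 over the 31 mitochondrial windows, against 0.011 over the 31702 windows near protein-coding starts. It was negative in 16 of 35 cytosolic windows and in 20 of 31 mitochondrial windows (64.5%), and in 45.9% of the windows near protein-coding starts. The 95% interval lay within 0.5 of 0 on the log2 scale in 49 of the 67 windows. Its lower end was above -0.5 in 54 and above -1 in 65. In the self-test on simulated counts of this comparison, 35 of 100 windows changed by 0.6 on the log2 scale were called and 92 of 100 changed by 1.0. The changed windows were drawn from those at or above the median level of all tested windows, with the same dispersion for every window. The median control level was 1.42 log2 CPM over all tested windows and 4.19 over the 67, so these rates are not estimates for member windows. How often a change of the size seen at MARS1 would be missed there was not tested.

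**Figure D2:**
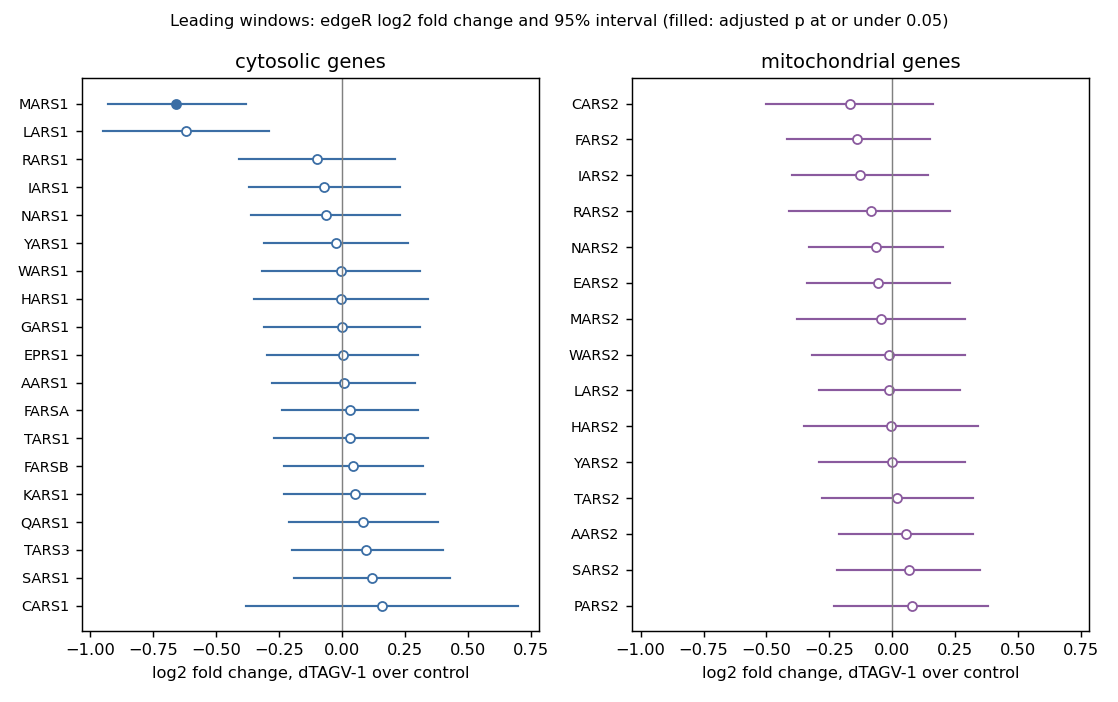
The edgeR log2 fold change of dTAGV-1 over control (horizontal axis) with its 95% interval for the leading window of each gene, cytosolic on the left and mitochondrial on the right, where HARS1 and HARS2 are the same window. MARS1 (-0.66) is the filled point past the threshold, LARS1 (-0.62) has an interval below 0 without passing it, and every other interval includes 0.

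For each gene the tested window with the highest average level, called the leading window, was used to set levels side by side; these windows are equally long, but DNA copy number in this line was not corrected for. In controls the median over cytosolic leading windows was 5.22 and over mitochondrial ones 5.08, against 4.06 over the leading windows of all protein-coding genes. Of the 34 leading windows, 31 were above that value, 17 cytosolic and 14 mitochondrial. Of their centres, 33 were upstream of the canonical start and 29 were within 150 bp of it. Taking the median over genes in each library, cytosolic exceeded mitochondrial leading windows by 0.07 ± 0.09 log2 CPM (SD, n = 8) in controls and by 0.05 ± 0.1 (SD, n = 8) with dTAGV-1, less than the spread between libraries in both groups. The direction depended on how levels were summarised. With the mean over genes it was -0.14 ± 0.05 (SD, n = 8) in controls and -0.15 ± 0.06 (SD, n = 8) with dTAGV-1, and with that mean but without CARS1, whose level is uncertain (described with the CARS1 start), 0.11 ± 0.05 and 0.079 ± 0.05 (SD, n = 8 each). When all member windows of a gene were averaged in place of the leading one, the median difference turned to -0.51 in controls and -0.5 with dTAGV-1.

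PARS2, the mitochondrial enzyme for proline, had the highest control level at 6.35 ± 0.3 (SD, n = 8), in a window 169 bp upstream of its start. LARS1 followed at 6.23, then TARS1, the cytosolic enzyme for threonine, at 5.91 ± 0.32 and TARS3, a threonyl-tRNA synthetase-like enzyme, at 5.84 ± 0.36 (SD, n = 8 each). WARS2, for tryptophan, had 5.72 ± 0.32 and CARS2, for cysteine, 5.64 ± 0.44 (SD, n = 8 each). Neighbouring levels in this order overlapped within their SDs. The CARS2 window lies 6911 bp upstream of its canonical start and within 500 bp of a start of ING1. The window nearer the CARS2 start, 251 bp upstream, was at 5.13 ± 0.35 (SD, n = 8) in controls and had a log2 fold change of -0.013. At the low end were CARS1 at 0.65 ± 0.63, in a window whose centre also occurs on an alternate contig and whose level is therefore uncertain, AARS2, for alanine, at 3.39 ± 0.26, FARSB, a subunit of the cytosolic phenylalanine enzyme, at 3.76 ± 0.23, and MARS2 at 4.17 ± 0.74 and FARSA, the other subunit, at 4.19 ± 0.23 (SD, n = 8 each).

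**Figure D3:**
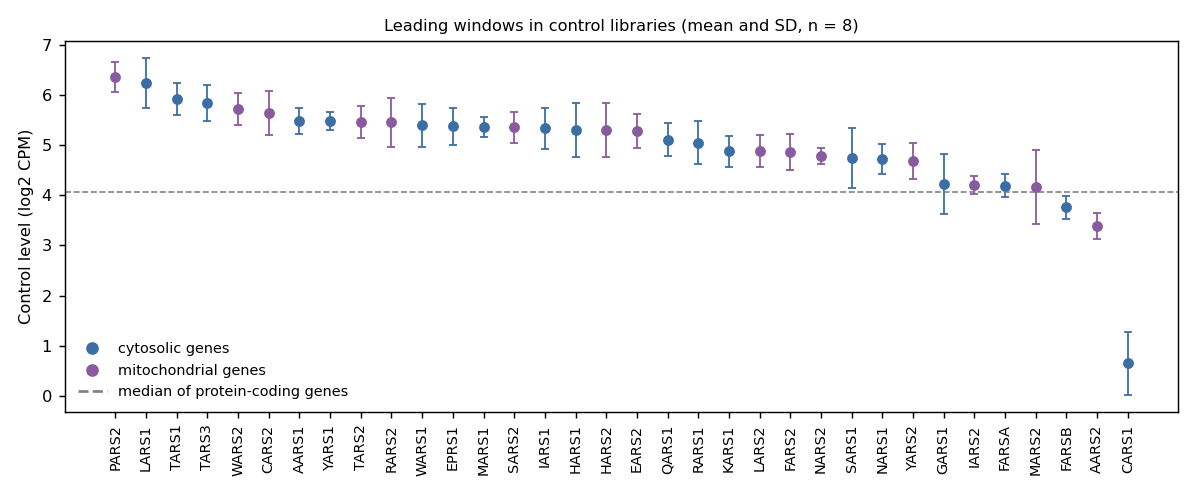
Control level in log2 CPM (vertical axis) of the leading window of each of the 34 genes in decreasing order, as mean and SD over 8 libraries; the dashed line is the median of all protein-coding genes (4.06). Cytosolic and mitochondrial genes are interspersed, from PARS2 (6.35) to CARS1 (0.65), whose window also occurs on an alternate contig.

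The remaining leading windows lay between these. Among them were the cytosolic enzymes AARS1 (alanine), YARS1 (tyrosine), WARS1 (tryptophan), IARS1 (isoleucine), QARS1 (glutamine), RARS1 (arginine), KARS1 (lysine), SARS1 (serine), NARS1 (asparagine) and GARS1 (glycine), and EPRS1, which charges the tRNAs of both glutamate and proline. The mitochondrial enzymes there were TARS2, RARS2, SARS2, EARS2, FARS2, NARS2 and YARS2. None passed the test, and their log2 fold changes had 95% intervals that included 0, for example 0.12 (95% interval -0.19 to 0.43) in SARS1 and -0.14 (95% interval -0.42 to 0.15) in FARS2. A group of 7 genes, EPRS1, IARS1, LARS1, MARS1, QARS1, RARS1 and KARS1, encodes enzymes of the multi-synthetase complex, a grouping made here after the values were seen. Of these 7, MARS1 alone was called, and the 5 other than MARS1 and LARS1 had log2 fold changes from -0.101 to 0.084.

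HARS1 and HARS2, the cytosolic and mitochondrial enzymes for histidine, start 85 bp apart in opposite directions and share the window chr5:140691247-140691647. Its lowest, median and highest libraries were at 4.03, 5.53 and 5.62 in controls and 4.56, 5.48 and 5.7 with dTAGV-1, so the groups overlapped. The log2 fold change was -0.004 (95% interval -0.35 to 0.34), too small to give a direction. In all, 11 of the 34 leading windows, 5 cytosolic and 6 mitochondrial, lay within 500 bp of a start of another protein-coding gene, and reads there cannot be assigned to either gene.

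For 14 combinations of a cytosolic and a mitochondrial enzyme for the same amino acid in separate windows, the cytosolic level was higher in controls in 7 and lower in 7, and in 6 of each this held in all 8 control libraries. Both counts of lower combinations include CARS1 against CARS2 (-4.98 ± 0.35, SD, n = 8), which rests on the uncertain CARS1 level. AARS1 exceeded AARS2 by 2.1 ± 0.24 log2 CPM (SD, n = 8) and IARS1 exceeded IARS2 by 1.13 ± 0.35 (SD, n = 8). In the other direction, EPRS1 was below PARS2, with a difference of -0.98 ± 0.13 (SD, n = 8), and FARSA below FARS2, with -0.68 ± 0.3 (SD, n = 8). The difference moved by -0.71 in the methionine pair and by -0.59 in the leucine pair. Without control replicate 12 the control differences were 0.97 ± 0.12 and 1.41 ± 0.19 (SD, n = 7), against 0.48 and 0.76 with dTAGV-1. Which of these 2 pairs moved more therefore depended on that library. The largest move in the others, 0.42, was in CARS1 and CARS2, where the CARS1 level is uncertain. The CARS2 window used there is the one within 500 bp of an ING1 start, with a log2 fold change of -0.17. The window nearer the canonical CARS2 start had -0.013.

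**Figure D4:**
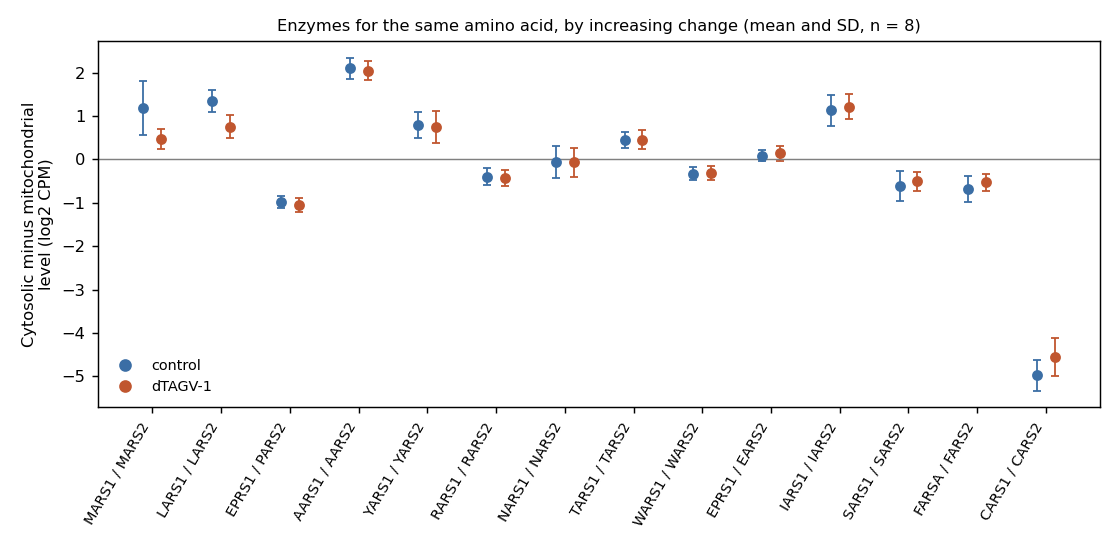
Level of the cytosolic minus that of the mitochondrial leading window in log2 CPM (vertical axis) for 14 combinations of enzymes for the same amino acid, as mean and SD over 8 control and 8 dTAGV-1 libraries. The differences of MARS1 from MARS2 (1.19 to 0.48) and LARS1 from LARS2 (1.35 to 0.76) fell between the group means, and the others changed by 0.42 or less. Without control replicate 12 the control means of these 2 pairs were 0.97 and 1.41 (n = 7).

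The CARS1 start could not be measured. The window with its ZNF143 core, chr11:3057300-3057700, had 0 counts in all 16 libraries although the authors' deposited table gives it a -log10 q of 542.3. A count of 0 allows up to 3 counts, which is 0.219 to 1.32 CPM depending on the library. The same held for both VARS1 windows and the VARS2 window, the enzymes for valine in the cytosol and mitochondria. The central 31 bases of all 4 windows also occur on alternate contigs of hg38, which was so for 2 of the 68 member windows with a count. Over the whole table it was so for 75.5% of the 2816 windows at 0 and for 4.52% of those with a count. The 0 counts are therefore not reported as closed chromatin. The CARS1 value given above comes from an overlapping window 366 bp upstream, 1 of the 2 member windows with a count that occur on an alternate contig (the other is the downstream LARS1 window). It had 220 counts in the 16 libraries together against a -log10 q of 232 in the authors' deposited table, so its level is not read as low accessibility. It had a log2 fold change of 0.16 (95% interval -0.38 to 0.7).

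Other motifs were counted in the 33 leading windows, within 100 bp of the centre and on both strands, beside their share over the leading windows of all protein-coding genes. The ETS motif CCGGAAG was in 10 (30.3% against 13.9%), the NF-Y motif CCAAT in 16 (48.5% against 30.5%) and the YY1 motif AAGATGGCG in 4 (12.1% against 2.14%). The YY1 matches were in FARSA, NARS1, WARS2 and YARS2. The NRF1 motif GCGCATGCG was in 2 (6.06% against 2.71%), the leading windows of MARS2 and CARS2. The CARS2 match lies 6923 bp upstream of the canonical CARS2 start, in a window also within 500 bp of an ING1 start. The window 251 bp upstream of the CARS2 start held 0 matches. SP and KLF factors' motif GGGGCGGGG was in 8 (24.2% against 23.4%). The E-box CACGTG was in 3 (9.09% against 7.03%). The ATF4 composite element TGATGNAAT, bound in the response to amino acid shortage, was in GARS1 only (3.03% against 0.228%). Matches to different motifs can overlap, and these shares were not tested.

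Genes that act beside the synthetases showed no called window. Over 33 genes in 6 lists, 82 windows were tested by edgeR and 0 were called in either direction. Of all 31702 windows near protein-coding starts, 0.628% were called lower, so 0 among 82 is not read as a trait of these genes. At an unadjusted p under 0.05 by edgeR, 1 of the 82 was lower and 0 were higher. That 1, with a log2 fold change of -0.42, belongs to PRORP, the nuclease subunit of mitochondrial RNase P. It is the lower in level of the 2 tested PRORP windows, and the leading one had -0.15 (SE 0.15). For the complex scaffolds AIMP1, AIMP2 and EEF1E1, the leading windows had log2 fold changes of -0.09 (SE 0.14), 0.04 (SE 0.15) and 0.08 (SE 0.16). The 4 genes that supply mitochondrial glutaminyl-tRNA and formylated initiator tRNA ranged from -0.17 in GATB, an amidotransferase subunit, to 0.08 in MTFMT, the formyltransferase. The 3 trans-editing genes, which clear mischarged tRNA, had a median over windows of 0.056, the 8 tRNA maturation genes -0.004 and the 7 elongation factor genes 0.043. In the 8 genes that sense uncharged tRNA or respond to it the median was 0.017, with 0.04 (SE 0.15) in EIF2AK4, the kinase that binds uncharged tRNA, 0.04 (SE 0.14) in ATF4, its downstream activator, and 0 (SE 0.15) in ASNS, an ATF4 target.

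Counts per library in windows ranged from 2275856 to 11418578 in controls and from 3373219 to 13671039 with dTAGV-1. Control replicate 12 had the fewest and the flattest profile, with 29.5% of counts in the top 10% of windows by level, against 42.9% to 46.5% in the other controls and 36.4% to 46.5% with dTAGV-1. Control replicate 11 came next, with 6742589 counts and 42.9%. With dTAGV-1, replicates 11 and 12 likewise had the fewest counts (4642812 and 3373219) and the lowest shares (39% and 36.4%). Control replicate 12 gave the lowest control value in each of MARS1, LARS1, MARS2 and LARS2. Its part in those results other than by leaving it out was not tested. Of genes chosen as expressed in kidney-derived HEK293T cells, PAX2 had 26.1 CPM in controls over its 4 windows together. Its leading window was at 3.36 ± 0.32 log2 CPM (SD, n = 8). NEFL had 11 CPM in 1 window, while the LHX1 window had 0 counts. As for the CARS1, VARS1 and VARS2 windows, that 0 is not reported as closed chromatin. Of 5 markers of other cell types, PTPRC, CD3E, ALB and HBB had no window and MYOD1 had 1, at 7.17 CPM (2.9 ± 0.24 log2 CPM, SD, n = 8).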

How the data were processed

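ATAC-seq counts were analysed for 8 control and 8 dTAGV-1 libraries (replicates 9 to 16), grouped by their labels. The deposited table holds whole-number counts per window, not normalized, per the file headers, and gives 1 -log10 q value per window from the authors' peak calling. The deposited summit list gives a -log10 score without values per library. Coordinates are hg38, and cutadapt 1.8.1, Bowtie2 2.4.4 and SAMtools 1.9 are named, per the submitters' processing notes. The peak caller, the counting tool, any Tn5 shift and the treatment of reads that map to several places are not given in the sources used here. A shift would move cut sites by a few bases within a window, and removal of such reads would empty windows with a copy elsewhere.

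Windows were assigned to starts with GENCODE release 44 (500 bp). Tests used edgeR 4.0.16 in R 4.3.3 (filterByExpr, TMM, quasi-likelihood), with Benjamini-Hochberg adjustment over 185040 windows and a threshold of 0.05. A window's fold change thus has the error of 16 libraries of 2275856 to 13671039 counts. Intervals use the 95% level, and the floor of 3 counts covers counting error only. The fit was tested on simulated data over 182104 windows, where 6 unchanged windows were called.

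Ranges over libraries, or means and SDs, are given for member windows with an adjusted p at or under 0.05 or an unadjusted p under 0.05. They are also given for windows with a ZNF143 core and for the window shared by 2 members. The highest 3 and lowest 2 leading windows of each class, by average level over both groups, were included too. FARSA, MARS2 and LARS2 were added after their values were seen. The members, gene lists and motifs were chosen with earlier results of these data known. Alternatives were RLE factors, cyclic loess, DESeq2 1.42.0, no filter, a replicate block, leaving out libraries, other distances to starts and another prior count. No 2 libraries were identical, and pairs of the same group differed by more than sampling noise (chi-square per degree of freedom 1.63 to 5.01 over 56 pairs).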

Additional observations from a re-analysis of the deposited data

Results flagged for a closer look

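In 34 groups of 8 libraries examined for a library far from the others, 11 held one. For a single group chance would give about 1 in 20. The 34 groups come from the same 16 libraries and are not independent, so the count cannot be set against that rate. In 10 of the 11 the library was control replicate 12, each time the lowest of its group in log2 CPM. Its value was 4.03 in the HARS1 and HARS2 window (others 5.14 to 5.62), 5.02 in LARS1 (6.18 to 6.49), 5.15 in TARS1 (5.85 to 6.16), 5.0 in the leading TARS3 window (5.77 to 6.13) and -0.7 in CARS1 (0.33 to 1.25), which rests on 1 count. Among mitochondrial genes it was 5.7 in PARS2 (6.25 to 6.69), 5.0 in WARS2 (5.56 to 5.95), 4.6 in CARS2 (5.63 to 6.03), 2.35 in MARS2 (4.2 to 4.56) and 4.12 in LARS2 (4.82 to 5.13). The remaining one was the cytosolic minus mitochondrial level in dTAGV-1 replicate 12, -0.17 against 0.04 to 0.13 in the others.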

How the results depend on the processing

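The MARS1 call and its direction held under every alternative run (log2 fold change -0.69 to -0.62 on leaving out 1 library; adjusted p 5.32e-10 to 0.0486). In all, 397 windows of the table were called, and 687 with cyclic loess offsets, 753 with the replicate block, 781 without replicates 11 and 12 of both groups, and 321 to 632 on leaving out 1 library, the most without control replicate 12. Member windows called rose from 1 to 2, with LARS1 as the second, with cyclic loess (-0.6, adjusted p 1.17e-08), the replicate block (-0.62, 8.26e-08), without replicates 11 and 12 (-0.67, 1.76e-13) and without control replicate 12 (-0.73, 1.13e-05); leaving out 1 library gave 1 to 2. LARS1 stayed uncalled with RLE factors (-0.62, 0.162), DESeq2 (-0.62, 0.0746) and no filter (-0.62, 0.359). The replicate block changed no other member's call. Replicate numbers were not taken to pair the libraries, since the labels name nothing they share and only 5 of 8 same-numbered correlations (0.028 to 0.34, all positive) were over 0.1. Yet 5 of 8 controls correlated best with their own number, and replicates 11 and 12 had the fewest counts in both groups. These are hints of pairing from the data, not the design. With 3 summaries chosen after seeing the data, the cytosolic minus mitochondrial level was -0.14 in controls and -0.15 with dTAGV-1 (mean over genes), 0.11 and 0.079 (that mean without CARS1), and 0.12 and 0.1 (median without CARS1). Averaging all member windows of a gene moved it to -0.51 in controls and -0.5 with dTAGV-1. Changes near 0 turned sign, none of them called: the HARS1 and HARS2 window (0.006 with loess, 0.01 without replicates 11 and 12; -0.1 to 0.074 on leaving out 1 library), TARS1 (-0.044 without control replicate 12; range 0.093 at most) and FARSB (-0.001 without it; 0.1 at most), AARS2 (-0.005 without control replicate 15; 0.098 at most), and, on leaving out 1 library, WARS2 (-0.086 to 0.049), MARS2 (-0.15 to 0.015) and LARS2 (-0.085 to 0.02). The causes were not tested. Among leading windows depth limits CARS1 most, with 1 to 31 counts per library.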

Other observations

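No test was applied at the rule's distance of 500 bp. The 2 tested windows just inside it, both 498 bp from a start, were an IARS1 window at 0.99 log2 CPM in controls and 0.55 with dTAGV-1 and a YARS2 window at 3.83 and 4.01. Just outside were a YARS2 window at 511 bp, with 3.86 and 3.88, and an IARS1 window at 555 bp, with 2.19 and 1.97. In all, 9 tested windows, these included, lay beyond 500 bp and within 1000 bp of a member's start. Of the 72 member windows, 15 lay more than 1000 bp from the canonical start and 22 overlapped another member window, and 13 genes had a single window.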
